A study of Mus musculus with 93 samples.

Results

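Macrophages sorted from mouse skin were profiled at 5 ages, and the 4 libraries of P8 and P21 were compared with the 4 of E14.5 and E18.5. These 8 libraries of 93 in the series were chosen by their labels for cell type (Mac), tissue (skin) and age. They are skin Mac of P8 (n = 2) and P21 (n = 2), against skin Mac of E14.5 (n = 2) and E18.5 (n = 2), and the 3 libraries of skin Mac at P2 are given as an intermediate age and entered no test. Ages counted from conception are written with E and days after birth with P. All are described as sorted macrophages, sequenced from polyA RNA by SMART-Seq2, which copies whole transcripts out of small RNA amounts. The labels give no strain, genotype, sex or sort markers for these libraries, and they do not say which replicates are technical and which are biological, so p-values measure only the spread between libraries.

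Langerhans cells are the resident macrophages of the epidermis. In mice their precursors enter the skin before birth, and after birth they settle between keratinocytes, divide and take on features of dendritic cells. Langerhans cells carry langerin, the lectin that forms Birbeck granules, and adhesion proteins such as EpCAM and E-cadherin. They also carry MHC class II molecules, which display antigen to T cells. The dermis keeps other macrophages, which express scavenger receptors such as the mannose receptor. A sort of skin macrophages can hold both, and in bulk RNA fewer cells of a type cannot be told apart from less RNA per cell.

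The deposited log2 values carry no counts, so depth is unknown. A common floor of 5.37 was set just above the band of lowest values, and a gene level is the sum of its transcripts above that floor, returned to log2. Between 9534 and 10883 genes of 14181 lay above the floor in the 11 skin libraries. Levels are not scaled by transcript length, so they are compared between libraries and never between genes. Where one group lies at the floor, the size of a log2 difference depends on where the floor was put. P8 replicate 1 and P21 replicate 2 share a pattern of low values with a smaller set of 33 libraries, while the other 9 skin libraries belong to a larger set of 60, which the labels do not name. All 4 embryonic libraries are in the larger set, so set and age overlap in part. Replicate 1 of P2 stands apart from the other P2 libraries in several macrophage genes given below.

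The label of macrophage was checked against Csf1r, the receptor for CSF1, which lay between 14.28 and 15.56 in all 11 libraries, and Adgre1, which encodes F4/80 and lay between 9.98 and 13.25. Of 23 macrophage core genes, 17 to 20 lay above the floor in P8 and P21 libraries, against all 23 in the embryonic and P2 libraries. Among those at the floor, Fcgr1 was there in all 4 P8 and P21 libraries and Mertk in 3 of them. Cd207, Epcam and Runx3, the markers used for Langerhans cells, were high in all 4 P8 and P21 libraries. Keratinocyte markers were also higher there: 14 to 17 of 18 lay above the floor in P8 and P21 libraries, with a summed level of 13.93 to 18.36, against 0 to 13 of 18 and 5.37 to 12.17 in E14.5 and E18.5 libraries. The groups did not overlap in either measure, and the P21 libraries were highest, with Krt14 at 16.71 and 16.5.

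Across all genes, limma with Benjamini-Hochberg adjustment called 1594 of 11716 genes tested, or 13.6%, at an adjusted p under 0.05 and a log2 difference of at least 1. Of these, 1113 (9.5%) were higher at P8 and P21 and 481 (4.11%) were lower, with a median difference over all genes of 0.18. Counts of list members called in this comparison, given below, are to be read beside these shares. Errors given with a difference are standard errors of that fit. Leaving out 1 library at a time gave 503 to 2210 calls, with 503 without E18.5 replicate 1, 588 without E18.5 replicate 2, 705 and 750 without P21 replicates 1 and 2, 999 and 976 without P8 replicates 1 and 2. Within the larger set, with P8 replicate 2 and P21 replicate 1 as the only postnatal libraries, 393 of 11126 genes were called, 338 higher (3.04%) and 55 lower (0.494%). There Id2 differed by 3.14 (adjusted p = 0.1143), Ahr by 2.04 (adjusted p = 0.08604) and Fcgr1 by -5.32 (adjusted p = 0.0785), and these were not called.

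Genes listed for Langerhans cell identity were higher at P8 and P21 as a group. Of 17 tested, 10 rose and none fell, with a median difference of 3.11 against 0.18 over all genes. The count was 10 with P8 alone, where 4.57% of all genes were called higher, 11 with P21 alone (7.96% of all genes), and 10 or 11 with any 1 library left out. Against E18.5 alone it was 6 (3.2% of all genes), with a median difference of 1.32. Within the larger set 7 of 16 rose.

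Cd207 (ENSMUSG00000034783.7, mm10 chr6:83671215-83677857, minus strand) encodes langerin. Its level was 15.37 and 14.82 at P8 and 14.55 and 14.85 at P21, against the floor in all 4 E14.5 and E18.5 libraries, so that the groups did not overlap, as in 8.68% of all genes in that direction. The P2 libraries stood at 13.39, 11.6 and 11.99, below every P8 and P21 library and far above the floor. P8 and P21 libraries averaged 14.89 ± 0.34 (SD, n = 4), and the difference of 9.52 ± 0.29 had an adjusted p of 1.729e-05 in limma. It was 8.52 with a floor 1 unit higher and 10.47 with no floor, and 9.31 ± 0.35 within the larger set (adjusted p = 0.01512).

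Epcam (ENSMUSG00000045394.9, mm10 chr17:87635979-87651129, plus strand) encodes the adhesion molecule EpCAM, which keratinocytes express too. Its level was 15.19 and 14.67 at P8 and 14.04 and 13.17 at P21, against the floor in both E14.5 libraries and 8.75 and 9.65 at E18.5. P2 libraries lay between the groups at 13.41, 12.76 and 12.84. The difference was 6.98 ± 0.34 (adjusted p = 9.248e-05). Epcam was lower in both P21 libraries than in both P8 libraries. The summed keratinocyte level was 18.36 and 18.24 at P21 and 13.93 and 14.41 at P8. The part of keratinocyte RNA in the Epcam level was not tested.

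Runx3 (ENSMUSG00000070691.10, mm10 chr4:135120652-135177990, plus strand) encodes a runt-domain transcription factor that Langerhans cells need to develop. It stood at 12.43 and 12.49 at P8 and 12.49 and 12.46 at P21, against 6.42 and 6.47 at E14.5 and 11.69 and 11.32 at E18.5. The E18.5 libraries were thus close to the postnatal ones and the E14.5 libraries far below. The difference of 3.49 ± 0.25 (adjusted p = 0.0003228) rested on E14.5: against E18.5 alone it was 0.96 ± 0.31 and not called (adjusted p = 0.1468). In a fit of 2 groups without age means its adjusted p was 0.0635. P2 libraries stood at 12.02, 12.56 and 11.96.

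**Figure D1:**
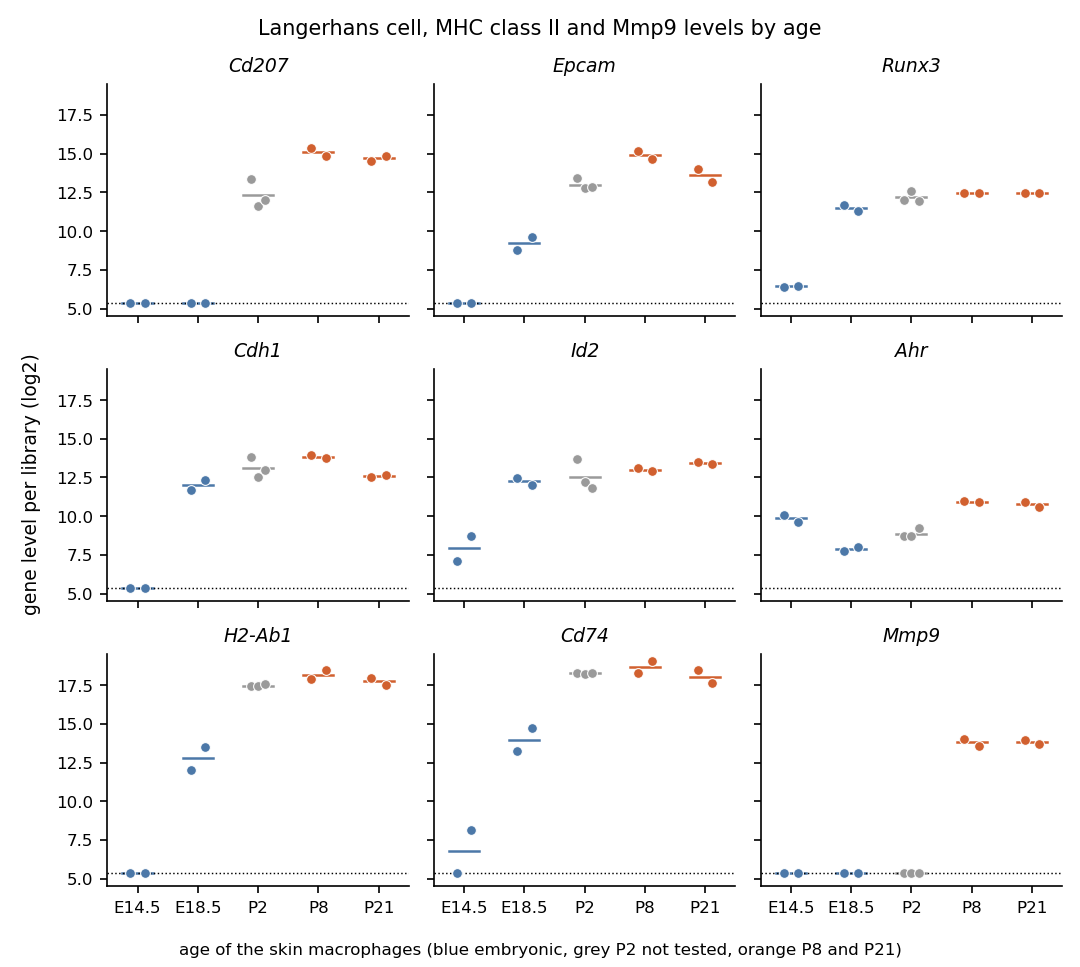
Log2 level (y axis) of 9 genes of Langerhans cells in each skin library by age (x axis, E14.5 to P21), with lines at the age means and a dotted line at the floor of 5.37. Cd207 leaves the floor at P2, Mmp9 at P8, and Runx3 and Cdh1 are already high at E18.5.

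Runx3 has a distal and a proximal start, and the table holds a transcript from each. The distal transcript had deposited values of 12.297 and 12.474 at P8 and 12.402 and 12.392 at P21, against 6.425 and 6.467 at E14.5 and 11.597 and 11.21 at E18.5. The proximal transcript had 9.094 and 6.879 at P8 and 8.551 and 8.208 at P21, against 4.034 and 3.911 at E14.5 and 7.991 and 7.795 at E18.5. Both were lowest at E14.5, and the distal values varied less between P8 and P21 libraries. The promoters of both starts and those of Cd207 and Epcam are shown because these are the 3 marker genes. Sequences are from RefSeq (GRCm38.p6), each 300 bases long with 250 before the start and 50 from it on, 5′ to 3′ on the gene's strand. Capitals mark a RUNX motif (AACCACA, searched on both strands) in Runx3 and an AP-1 motif (TGANTCA) in Cd207, and the Epcam window has none.
Cd207, chr6:83677808-83678107, minus strand: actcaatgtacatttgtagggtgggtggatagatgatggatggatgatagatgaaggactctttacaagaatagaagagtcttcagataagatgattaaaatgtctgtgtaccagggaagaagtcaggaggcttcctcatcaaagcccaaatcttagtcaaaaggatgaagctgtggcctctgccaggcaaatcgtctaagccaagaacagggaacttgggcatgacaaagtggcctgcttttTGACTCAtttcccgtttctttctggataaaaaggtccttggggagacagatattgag
Epcam, chr17:87635729-87636028, plus strand: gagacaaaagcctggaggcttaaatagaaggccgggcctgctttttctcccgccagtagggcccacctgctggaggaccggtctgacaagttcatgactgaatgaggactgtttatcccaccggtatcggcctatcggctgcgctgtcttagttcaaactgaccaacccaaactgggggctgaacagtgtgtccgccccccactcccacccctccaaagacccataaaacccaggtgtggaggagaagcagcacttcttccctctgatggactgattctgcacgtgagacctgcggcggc
Runx3 distal, chr4:135120395-135120694, plus strand: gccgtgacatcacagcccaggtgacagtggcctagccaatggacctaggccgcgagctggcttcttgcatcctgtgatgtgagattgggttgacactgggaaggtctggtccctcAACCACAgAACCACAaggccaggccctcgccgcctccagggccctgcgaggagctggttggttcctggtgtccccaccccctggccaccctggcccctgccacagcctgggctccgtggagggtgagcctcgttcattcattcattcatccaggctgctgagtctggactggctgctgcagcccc
Runx3 proximal, chr4:135152295-135152594, plus strand: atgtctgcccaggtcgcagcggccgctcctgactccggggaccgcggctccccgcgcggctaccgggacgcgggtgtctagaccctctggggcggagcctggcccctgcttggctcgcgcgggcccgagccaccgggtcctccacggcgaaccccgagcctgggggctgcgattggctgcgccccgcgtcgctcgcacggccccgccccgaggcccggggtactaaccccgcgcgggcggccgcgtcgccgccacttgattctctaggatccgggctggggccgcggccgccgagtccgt
The distal Runx3 window holds AACCACA at bases 116 to 122 and 124 to 130, and the proximal one has no match. Of 32851 mouse promoters of this length, 1731 (5.27%) hold it on either strand. The AP-1 motif at bases 244 to 250 of the Cd207 window occurs in 7.81% of promoters, and the PU.1 motif GAGGAA, found on its other strand at bases 133 to 138, in 28.3%. The Epcam window held none of these motifs, nor the Y box CTGATTGG. These matches describe the letters in the windows only.

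Among the other identity genes, Cdh1, which encodes E-cadherin and tethers Langerhans cells to keratinocytes, was at 13.94 and 13.75 at P8 and 12.53 and 12.65 at P21, against the floor in both E14.5 libraries and 11.71 and 12.35 at E18.5. The difference was 4.52 ± 0.27 (adjusted p = 0.0001622), but 1.19 ± 0.33 and not called against E18.5 alone (adjusted p = 0.09477). Id2, an inhibitor of DNA-binding factors needed by Langerhans cells, followed the same course, with 13.08 and 12.94 at P8 and 13.51 and 13.4 at P21, against 7.12 and 8.74 at E14.5 and 12.45 and 12.04 at E18.5. Its difference was 3.15 ± 0.38 (adjusted p = 0.002789), and 0.99 ± 0.47 against E18.5 alone (adjusted p = 0.3375). Ahr, the aryl hydrocarbon receptor, differed in course, since its lowest level was at E18.5: it was at 10.98 and 10.9 at P8 and 10.92 and 10.6 at P21, against 10.1 and 9.64 at E14.5 and 7.73 and 8 at E18.5 (difference 1.98 ± 0.3, adjusted p = 0.00644). Against E14.5 alone the difference was 0.98 ± 0.37 and not called (adjusted p = 0.1054), and it was also not called in a fit of 2 groups without age means.

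Mfge8, a secreted protein that bridges dying cells to phagocytes, was at 16.99 and 16.61 at P8 and 16.13 and 15.62 at P21, against the floor in both E14.5 libraries and 9.6 and 10.28 at E18.5, and at 14.55, 15.08 and 14.94 at P2. Every P8 and P21 library lay above every P2 library, and every P2 library above every embryonic one. Its difference was 8.68 ± 0.29 (adjusted p = 1.729e-05). The surface glycoprotein gene Cd24a rose by 6.44 ± 0.47 and Ltc4s, leukotriene C4 synthase, by 3.11 ± 0.49. Cd24a is also an epithelial gene. It was called with P8 alone, at 7.65 ± 0.58, and with P21 alone.

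Genes of MHC class II presentation were higher at P8 and P21. Of 13 tested, 8 rose and 1 fell, against 9.5% and 4.11% of all genes. The median difference was 5.74, against 0.18 over all genes. With P8 alone 8 rose (4.57% of all genes) and with P21 alone 8 (7.96%). Against E18.5 alone 7 rose (3.2%), and within the larger set 7 (3.04%). H2-Ab1 encodes a beta chain of the class II dimer and was at 17.88 and 18.47 at P8 and 17.97 and 17.51 at P21, against the floor in both E14.5 libraries and 12.03 and 13.52 at E18.5. The P2 libraries, at 17.43, 17.44 and 17.54, lay close to the P21 ones. Its difference was 8.89 ± 0.4 (adjusted p = 5.958e-05).

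H2-Aa and H2-Eb1, the other dimer chains tested, rose by 8.64 ± 0.49 and 8.79 ± 0.46. Cd74, the invariant chain that guides the dimer to endosomes, was at 18.31 and 19.06 at P8 and 18.45 and 17.63 at P21, against the floor and 8.14 at E14.5 and 13.22 and 14.72 at E18.5 (difference 8 ± 0.68, adjusted p = 0.0006327). Within the larger set its difference was 8.39 ± 1.1, with an adjusted p of 0.06667. Ciita, the transactivator of class II genes, rose by 5.74 ± 0.38, and the peptide exchange genes H2-DMa, H2-DMb1 and H2-DMb2 by 5.86 ± 0.71, 7.22 ± 0.27 and 4.9 ± 0.27. The member that fell was Lgmn, an endosomal protease, by 2.75 ± 0.51 (adjusted p = 0.0133). The promoters of H2-Aa and H2-Eb1, which moved together, are shown with the Y box (CTGATTGG), the letters that NF-Y is known to bind in class II promoters, in capitals.
H2-Aa, chr17:34287774-34288073, minus strand: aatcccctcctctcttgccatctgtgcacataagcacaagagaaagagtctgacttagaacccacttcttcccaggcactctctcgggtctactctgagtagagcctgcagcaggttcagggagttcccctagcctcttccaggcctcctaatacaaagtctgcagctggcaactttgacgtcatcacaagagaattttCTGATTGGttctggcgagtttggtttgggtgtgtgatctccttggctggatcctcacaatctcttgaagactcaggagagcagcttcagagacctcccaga
H2-Eb1, chr17:34305617-34305916, plus strand: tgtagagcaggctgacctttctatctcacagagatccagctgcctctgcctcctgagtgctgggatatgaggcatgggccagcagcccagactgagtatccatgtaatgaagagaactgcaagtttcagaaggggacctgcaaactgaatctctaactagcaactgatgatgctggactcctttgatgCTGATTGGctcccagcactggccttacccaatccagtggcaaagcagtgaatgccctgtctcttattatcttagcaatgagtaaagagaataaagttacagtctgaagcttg
The Y box stood at bases 200 to 207 in H2-Aa and 189 to 196 in H2-Eb1, and 4.1% of the 32851 promoters hold it on either strand.

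For MHC class I the calls rested on single libraries. Of 13 genes tested, 4 rose and none fell, with a median difference of 1.35: H2-D1 (2 ± 0.33), H2-T23 (2.54 ± 0.42), H2-K1 (1.62 ± 0.36) and Tap1, a peptide transporter subunit (1.48 ± 0.4). None was called without E18.5 replicate 1, where their adjusted p reached 0.05503 for H2-D1 and 0.05386 for H2-T23, and over all libraries left out in turn 0.1065 for H2-K1 and 0.1632 for Tap1. None was called against E18.5 alone or within the larger set. The class I heavy chain genes are near-identical in sequence, so reads may be split between them. Of 9 costimulation and maturation genes tested, Cd40 rose by 4.73 ± 0.62 and Marcksl1 by 1.78 ± 0.41, and Icosl fell by 2.98 ± 0.6. Cd40, a receptor for T cell help, was at 11.05 and 10.11 at P8 and 10.67 and 8.59 at P21, against the floor in all 4 embryonic libraries. The calls of Marcksl1 and Icosl were lost when some single libraries were left out, with adjusted p up to 0.1302 and 0.07732. Cd86, a ligand for T cell costimulation, differed by 0.06 ± 0.34 (adjusted p = 0.938).

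Adhesion and junction genes rose beyond Epcam and Cdh1. Of 19 tested, 10 rose and 3 fell, against 9.5% and 4.11% of all genes, with a median difference of 1.43. The count of rising genes was 9 with P8 alone (4.57% of all genes) and 4 against E18.5 alone (3.2%). It was 5 of 18 within the larger set (3.04%). With 1 library left out it was 6 to 10, lowest without E18.5 replicate 1. Cldn1, the tight junction protein claudin-1, was at 14.96 and 14.26 at P8 and 13.78 and 12.79 at P21, against the floor in both E14.5 libraries and 9.17 and 9.33 at E18.5, a difference of 6.64 ± 0.33 (adjusted p = 9.248e-05). The tetraspanin genes Cd82 and Cd9 rose by 5.19 ± 0.31 and 3.96 ± 0.63, the scaffold gene Tjp1 by 2.81 ± 0.5, the integrin gene Itgb7 by 3.04 ± 0.61, the membrane protease gene Mmp14 by 2.95 ± 0.36 and Cd44, a hyaluronan receptor, by 1.33 ± 0.31. The members that fell were S1pr1, a receptor for the lymph exit signal sphingosine 1-phosphate, by 3.53 ± 0.49, and the integrin genes Itga6 and Itga4 by 1.97 ± 0.37 and 1.61 ± 0.4. S1pr1 was at the floor in all 4 P8 and P21 libraries, against 8.55 and 9.83 at E14.5 and 8.57 and 8.65 at E18.5. Without E18.5 replicate 1 the count of falling members was 1. By age means the differences of Cd44 and Itga6 lay mostly at P8, as Cd44 averaged 13.39 at P8 and 11.48 at P21, against 11.1 at E14.5 and 11.12 at E18.5, and Itga6 averaged 8.3 at P8 and 11.08 at P21, against 11.64 and 11.66. Mmp14 (10.83 and 10.20, against 5.37 and 9.75) and Itga4 (8.7 and 7.96, against 10.74 and 9.14) differed mostly from E14.5.

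Mmp9, a gelatinase that cuts basement membrane collagen, had a course of its own. It was at 14.03 and 13.58 at P8 and 13.96 and 13.68 at P21, against the floor in all 4 embryonic libraries and in all 3 P2 libraries. The groups were far apart, and the difference was 8.44 ± 0.31 (adjusted p = 1.729e-05). Ly75, the endocytic receptor DEC-205, was also late, at 11.42 and 11.41 at P8 and 10.86 and 10.36 at P21, against the floor in all 4 embryonic libraries, with 5.55, 7.46 and 5.71 at P2 (difference 5.65 ± 0.45, adjusted p = 0.0005006).

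Among the genes with the largest rises were several surface receptors and enzymes outside the lists. P2rx2, an ATP-gated channel, was at 14.56 and 14.08 at P8 and 14.05 and 14.02 at P21, against the floor in both E14.5 libraries and 7.66 and 8.27 at E18.5 (difference 7.51 ± 0.29, adjusted p = 1.961e-05). Lpar3, a lysophosphatidic acid receptor, rose by 7.44 ± 0.52, and Dpep2, a membrane dipeptidase, by 7.16 ± 0.26. Of the C-type lectins, Cd207, Ly75 and Mrc2 rose and Mrc1, Clec12a and Clec4a2 fell, of 17 tested, where the call of Clec12a was lost with some libraries left out (adjusted p up to 0.05745). Mrc2 rests on P21, where it averaged 7.92, since it was at the floor at P8, E14.5 and E18.5. Il7r, an interleukin-7 receptor chain, was at 12.49 and 12.2 at P8 and 10.51 and 10.82 at P21, against the floor in both E14.5 libraries and 7.45 and 7.51 at E18.5 (difference 5.08 ± 0.36). Cd2, a T cell adhesion gene, also rose, by 3.5 ± 0.5, and 1 to 5 of 6 T cell genes lay above the floor in P8 and P21 libraries, with a summed level of 8.51 to 11.09, against 0 to 2 and 5.37 to 6.14 in the embryonic ones. The part of other cells in these values was not tested.

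Of 24 lipid and retinoid genes tested, 9 rose and 2 fell, against 9.5% and 4.11% of all genes (median difference 1.08). The count of rising genes was 6 with P8 alone (4.57% of all genes) and 4 against E18.5 alone (3.2%). Within the larger set it was 1 of 23, near the share over all genes there (3.04%). With 1 library left out 5 to 10 rose and 0 to 4 fell, both lowest without E18.5 replicate 1. The rising members included the leukotriene pathway. Alox5, which makes leukotriene A4, was at 14.6 and 15.02 at P8 and 14.4 and 13.99 at P21, against 10.15 and 9.05 at E14.5 and 10.58 and 11.57 at E18.5 (difference 4.17 ± 0.37, adjusted p = 0.0008171). Its partner Alox5ap rose by 2.43 ± 0.54. Ptgs1, cyclooxygenase 1, was at 15.54 and 15.14 at P8 and 14.33 and 14.45 at P21, against 10.59 and 12.3 at E14.5 and 9.86 and 9.91 at E18.5 (difference 4.2 ± 0.4, adjusted p = 0.001103). The retinoic acid receptor genes Rara and Rarg rose by 3.64 ± 0.45 and 2.39 ± 0.6, and their partner Rxra by 2.86 ± 0.37. Cd36, a fatty acid receptor, and Abca1, a cholesterol exporter, fell by 3.99 ± 0.71 and 2.06 ± 0.42. Abca1 differed mostly from E14.5, with age means of 8.54 at P8 and 8 at P21, against 12.18 at E14.5 and 8.48 at E18.5. The call of Cd36 was lost with an adjusted p of up to 0.06414 when single libraries were left out.

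Many macrophage genes were lower at P8 and P21. Of 23 macrophage core genes tested, 10 fell and 1 rose (Spi1), with a median difference of -2.04, and 8 fell with P8 alone (1.83% of all genes), 10 with P21 alone (3.58%) and 8 against E18.5 alone (1.23%). Within the larger set 3 fell. Of 21 genes of embryonic and dermal macrophages, 9 fell and none rose (median -2.46). That count was 8 with P8 alone, 9 with P21 alone, 7 to 10 with 1 library left out and 6 within the larger set, but 1 against E18.5 alone.

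Cx3cr1, the fractalkine receptor, was at 6.3 and 6.6 at P8 and 5.89 and 5.96 at P21, against 11.77 and 14 at E14.5 and 12.94 and 12.25 at E18.5. The groups did not overlap, as in 3.75% of all genes in that direction, and the difference was -6.55 ± 0.52 (adjusted p = 0.0005324). The P2 libraries, at 13.1, 11.59 and 10.56, were all above every P8 and P21 library and partly below the embryonic range. Within the larger set the difference was -6.49 ± 0.81, with an adjusted p of 0.06285. Fcgr1, the high-affinity receptor for IgG, was at the floor in all 4 P8 and P21 libraries, against 9.86 and 11.89 at E14.5 and 10.21 and 10.78 at E18.5, and at 11.79, 9.68 and 9.8 at P2 (difference -5.32 ± 0.59, adjusted p = 0.002023). Cybb, the catalytic subunit of the phagocyte NADPH oxidase, was likewise at the floor in all 4, against 9.12 and 11.46 at E14.5 and 11.59 and 11.7 at E18.5 (difference -5.6 ± 0.61). Apobec1, an RNA-editing deaminase, was at the floor in all 4, against 11.06 and 11.78 at E14.5 and 11.43 and 10.35 at E18.5 (difference -5.79 ± 0.49).

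Mrc1, the mannose receptor, was at 7.17 and 7.41 at P8 and 9.4 and 5.86 at P21, against 15.32 and 15.34 at E14.5 and 11.11 and 11.16 at E18.5. The E18.5 libraries lay between the E14.5 and the postnatal ones. The difference was -5.77 ± 0.69 (adjusted p = 0.002647), and -3.68 against E18.5 alone, with an adjusted p of 0.0559. Stab1, stabilin-1, was at 9.03 and 8.56 at P8 and 10.1 and the floor at P21, against 16.5 and 16.66 at E14.5 and 12.51 and 11.99 at E18.5 (difference -6.15 ± 0.9, adjusted p = 0.00569). Lyve1, a hyaluronan receptor of perivascular macrophages, fell by 5 ± 0.5, and F13a1, a coagulation factor subunit, by 5.61 ± 0.57. P2 replicate 1 was higher than the other P2 libraries in Mrc1 (13.84, against 11.7 and 11.37), Stab1 (14.78, against 11.07 and 10.58) and Lyve1 (12.87, against 9.96 and 10.87).

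Dab2, an endocytic adaptor, fell furthest among the genes named by rule, by 7.76 ± 0.54 (adjusted p = 0.0002722). It was at the floor and 7.88 at P8 and 5.89 and the floor at P21, against 15.66 and 15.85 at E14.5 and 11.94 and 12.11 at E18.5. The guidance receptor gene Nrp1 fell by 5.77 ± 0.47, the metal transporter gene Slc11a1 by 5.65 ± 0.47, and the annexin gene Anxa3 by 5.63 ± 0.46. The efferocytosis receptor gene Mertk fell by 4.33 ± 0.65 and the lipid receptor gene Trem2 by 5.23 ± 0.61.

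**Figure D2:**
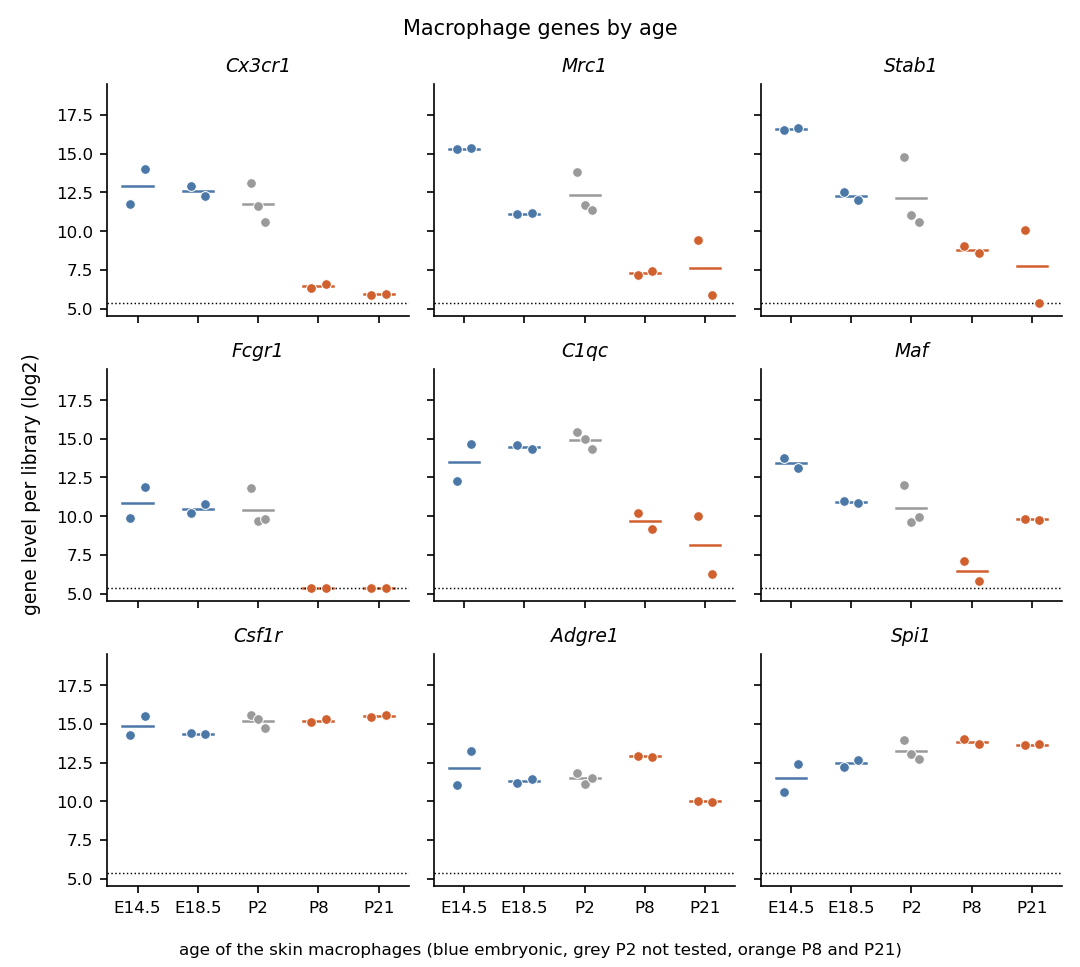
Log2 level (y axis) of 9 macrophage genes in each skin library by age (x axis, E14.5 to P21), with lines at the age means and a dotted line at the floor of 5.37. Cx3cr1, Fcgr1 and C1qc stay high at P2 and are low at P8 and P21, Mrc1 and Stab1 are already lower at E18.5, and Csf1r stays between 14.28 and 15.56.

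Several core genes were not called. Csf1r was at 15.09 and 15.32 at P8 and 15.46 and 15.56 at P21, against 14.28 and 15.49 at E14.5 and 14.42 and 14.32 at E18.5 (difference 0.73 ± 0.42, adjusted p = 0.2976), with a difference of -0.04 after quantile normalization. Without E14.5 replicate 2 it was called, at 1.03 with an adjusted p of 0.0231. Adgre1 differed by -0.28 ± 0.46 (adjusted p = 0.7493), and was lower at P21 (10.03 and 9.98) than at P8 (12.93 and 12.86). Ptprc, the pan-leukocyte gene for CD45, differed by -0.4 ± 0.35 and Tyrobp, a signalling adaptor, by 0.71 ± 0.37. Neither passed the test.

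Of 16 complement and Fc receptor genes, 7 fell and 3 rose, with a median of -2.01, though only 3 fell with P8 alone, and with 1 library left out 3 to 8 fell and 0 to 3 rose. C1qc, a subunit of the complement starter C1q, was at 10.22 and 9.15 at P8 and 9.98 and 6.26 at P21, against 12.27 and 14.69 at E14.5 and 14.62 and 14.35 at E18.5 (difference -5.08 ± 0.86, adjusted p = 0.009827), and at 15.45, 14.96 and 14.33 at P2. Its call was lost without E18.5 replicate 1, E18.5 replicate 2 or P8 replicate 2, with adjusted p up to 0.0594. C1qb fell by 4.71 ± 0.89 and the low-affinity IgG receptor gene Fcgr3 by 5.31 ± 0.45. C3ar1 fell by 4.74 ± 0.86, a call lost with some libraries left out (adjusted p up to 0.06951), and C5ar1 by 3.32 ± 0.55. The integrin genes Itgax and Itgb2, and Cfp, the gene for properdin, rose by 2.74 ± 0.64, 1.6 ± 0.32 and 1.8 ± 0.37. Itgb2 averaged 11.1 at E18.5 and 8.48 at E14.5, so its difference was mostly from E14.5. The call of Itgax was lost in 6 of 8 fits with 1 library left out (adjusted p up to 0.1178).

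Of 17 chemokine and chemokine receptor genes, 8 fell and 2 rose (median -2.12), and 3 to 10 fell with 1 library left out. Over all genes tested 4.11% fell and 9.5% rose. Against E18.5 alone 4 of the 17 fell and 1 rose. Ccr1 was at 7.65 and the floor at P8 and the floor and 6 at P21, against 12.49 and 12.53 at E14.5 and 11.88 and 11.89 at E18.5 (difference -6.1 ± 0.54, adjusted p = 0.0007969). Ccr2, the monocyte chemokine receptor, was at the floor in all 4 P8 and P21 libraries, against the floor in both E14.5 libraries and 10.85 and 10.64 at E18.5, so the embryonic ages differed in it. Ccl2 fell by 3.71 ± 0.66 and Pf4 by 3.93 ± 0.67, and both calls were lost with some libraries left out (adjusted p up to 0.06567 and 0.05896). The rising members were Ccrl2 (2.61 ± 0.52) and Ackr3 (2.39 ± 0.38). Ackr3 rests on P21, where it averaged 10.14, since it was at the floor at P8, E14.5 and E18.5.

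Pattern recognition receptor genes fell in 6 of 19 cases, with none rising (median -1.08). The count was 3 to 7 with 1 library left out, lowest without E18.5 replicate 2, and 1 of 18 within the larger set. Cd14, a coreceptor for lipopolysaccharide, was at 7.54 and 7.94 at P8 and the floor and 5.58 at P21, against 9.68 and 10.77 at E14.5 and 11.23 and 10.94 at E18.5 (difference -4.04 ± 0.45, adjusted p = 0.002023). Tlr1, Tlr7, Tlr8 and Msr1 fell by 3.99 ± 0.46, 3.83 ± 0.61, 2.46 ± 0.48 and 3.72 ± 0.65, and the call of Tlr7 was lost with an adjusted p of 0.05075 when 1 library was left out. Tlr8 averaged 6.07 at E18.5 and 9.59 at E14.5, so its difference was mostly from E14.5. Against E18.5 alone 1 of the 19 fell. Of 15 interleukin-1 family and inflammasome genes 3 rose and 3 fell, and with 1 library left out 2 to 4 rose and 1 to 4 fell. Il1r2, a decoy receptor, rose by 5.29 ± 0.59, the receptor gene Il1r1 by 3.8 ± 0.49 and Il1rap, a receptor chain, by 2.54 ± 0.58. The call of Il1rap was lost in 6 of 8 fits with 1 library left out (adjusted p up to 0.1075). Il18rap, a receptor chain for interleukin-18, was not called (-0.92 ± 0.74, adjusted p = 0.4704). Nlrp1b fell by 2.95 ± 0.46, Aim2 by 2.45 ± 0.46 and Il1b by 1.56 ± 0.38. The difference of Il1b rests on E18.5, where it averaged 8.5, since it was at the floor at P8, P21 and E14.5. Of 18 interferon response genes 4 fell and none rose, 1 to 3 fell with 1 library left out, and none was called with P8 alone.

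Transcription factor genes split, with 5 rising and 3 falling of 16, and 3 to 5 rising with 1 library left out. Besides Runx3, Id2 and Ahr, Spi1, the gene for PU.1, rose by 1.77 ± 0.42 (adjusted p = 0.03195) and Klf4 by 2.93 ± 0.57. Klf4 averaged 8.12 at P8 and 10.54 at P21, against 5.37 at E14.5 and 7.42 at E18.5. The P21 libraries also had the highest keratinocyte levels, and the part of keratinocyte RNA in Klf4 was not tested. The call of Spi1 was lost in 6 of 8 fits with 1 library left out (adjusted p up to 0.1362). Zeb2, which maintains macrophage identity in other tissues, was at 7.08 and the floor at P8 and 8.13 and the floor at P21, against 12.71 and 12.13 at E14.5 and 10.26 and 9.49 at E18.5 (difference -4.66 ± 0.72, adjusted p = 0.006739). Maf, a factor of mature macrophages, fell by 4.05 ± 0.37 and Irf8 by 1.39 ± 0.28. By age means Maf was lowest at P8 (6.46) and nearer to E18.5 (10.93) at P21 (9.82), with 13.44 at E14.5. Of 24 genes of TGF-beta and BMP signalling, which Langerhans cells depend on, 3 rose and 1 fell (median 0.39), and with 1 library left out 1 to 4 rose and 0 to 2 fell. These counts are near the shares over all genes tested, of which 9.5% rose and 4.11% fell. Tgfbr1, a type 1 receptor, was at 10.62 and 10.20 at P8 and 8.65 and 7.65 at P21, against 10.31 and 9.74 at E14.5 and 12.22 and 12.12 at E18.5 (difference -1.82 ± 0.34, adjusted p = 0.01425), and 12.47, 12.1 and 12.65 at P2. Its call was lost without E18.5 replicate 1, E18.5 replicate 2 or P8 replicate 2 (adjusted p up to 0.08311). Tgfbr2 rose by 1.55 ± 0.37, a call lost in 5 fits with 1 library left out (adjusted p up to 0.1238). Id3, a BMP and TGF-beta target, was at 7.34 and 7.48 at P8 and 11.05 and 11.81 at P21, against the floor in all 4 embryonic libraries. It rose by 4.05 ± 0.47, but was not called with P8 alone.

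Of 29 cell cycle genes 3 fell and 1 rose, with a median of -0.54. Mki67, a marker of dividing cells, was at 12.57 and 12.35 at P8 and 11.12 and 11.66 at P21, against 14.01 and 12.87 at E14.5 and 12.92 and 13.07 at E18.5 (difference -1.29 ± 0.34, adjusted p = 0.0431). Its call was lost in 6 of 8 fits with 1 library left out (adjusted p up to 0.1596), and no cell cycle gene was called with P8 alone. Of 17 immediate early and stress genes 9 rose and none fell (median 2.01), but 1 was called without P21 replicate 1. Fos was at 14.89 and 13.89 at P8 and 10.91 and 10.20 at P21, against 6.26 and 7.82 at E14.5 and 10.97 and 7.41 at E18.5. Of 24 lysosome and phagocytosis genes 1 rose and 4 fell, with a median of -0.39, and with 1 library left out 0 to 4 rose and 3 to 7 fell. Of 9 genes of CSF1R and related growth factor receptors, Csf2ra and Flt3 rose, and their calls were also lost with some libraries left out (adjusted p up to 0.1597 and 0.08887).

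**Figure D3:**
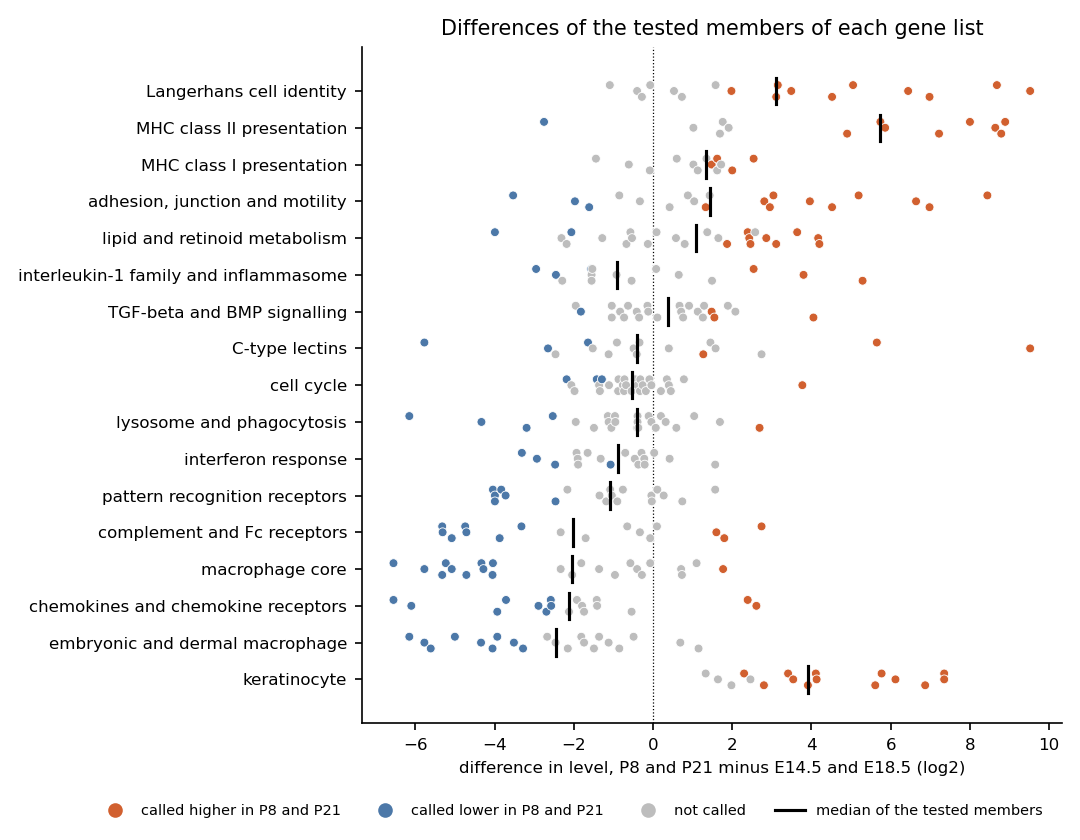
Log2 difference (x axis, P8 and P21 minus E14.5 and E18.5) of each tested gene in 17 gene lists (rows), coloured by call, with a black bar at the list's median. Langerhans cell identity (median 3.11), MHC class II (5.74) and keratinocyte genes (3.91) lie to the right, and embryonic and dermal macrophage (-2.46) and chemokine genes (-2.12) to the left.

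At P2 the rising genes stood, by their median, further along than the falling ones. Over the 1113 rising genes the P2 mean lay at a median of 46.7% of the way between the embryonic mean (0%) and the P8 and P21 mean (100%), and over the 481 falling genes at 26.3%. The P2 mean was nearer to the P8 and P21 mean for 523 rising genes (47%) and 128 falling genes (26.6%). These shares describe genes already chosen by the 8 tested libraries, and no test was made on P2. Cd74 stood at 98.6% of its change at P2, Cdh1 at 97.2%, H2-Aa at 96%, Runx3 at 91.7%, Mfge8 at 82.9%, Epcam at 81.9% and Cd207 at 73.1%. Mrc1 stood at 16.1%, Cx3cr1 at 15.1%, Apobec1 at 10%, Fcgr1 at 5% and Ccr1 at 2.6%. C1qc (-18.4%) and Cybb (-13%) had P2 means above their embryonic means. The P2 libraries held both high class II and identity genes and high Fcgr1 and C1qc, while Mmp9 (0%) and Ly75 (15.4%) had barely moved.

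Between the embryonic ages, limma called 286 of 11716 genes (2.44%), 163 higher at E18.5 (1.39%) and 123 lower (1.05%). Of 17 Langerhans cell identity genes 5 rose (Runx3, Id2, Cdh1, Epcam and Mfge8), and of 13 MHC class II genes 7 rose (median 4.81). Of 21 embryonic and dermal macrophage genes 5 fell (median -2.51), whereas none of 23 macrophage core genes was called in limma, with 2 higher and 3 lower at an unadjusted p under 0.05. H2-Ab1 was at 12.03 and 13.52 at E18.5 and at the floor in both E14.5 libraries, a difference of 7.41 ± 0.57 (adjusted p = 0.003194). Cd74 rose by 7.21 ± 0.96, Cdh1 by 6.66 ± 0.38, Spint1, a protease inhibitor, by 6.74 ± 0.43, and Cd72, a lectin-like receptor, by 6.85 ± 0.45. The largest falls were in Igf1, a growth factor, by 5.99 ± 0.95, Phyhd1 by 5.7 ± 1.11, Tbxas1, thromboxane synthase, by 5.43 ± 0.81, the semaphorin gene Sema6d by 5.27 ± 0.6 and F13a1 by 5.24 ± 0.81. Each of these 10 calls was lost without at least 1 library, and without E18.5 replicates 1 and 2 the count of all calls was 7 and 0, with 1290 genes at an unadjusted p under 0.05 in the second case.

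Cd207 was at the floor at both embryonic ages, and its P2 libraries, at 11.6 to 13.39, lay above these and below every P8 and P21 library. Runx3 and Cdh1 had covered 84% and 84.8% of their change between the E14.5 mean and the P8 and P21 mean by E18.5, Id2 81.4%, Cd74 62.2%, Epcam 43% and Mfge8 41.7%. For the falling genes the figure was 64.9% for Lyve1, 53.3% for Mrc1, 52.1% for Stab1 and 4.3% for Cx3cr1.

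P21 and P8 differed in 264 of 11716 genes (2.25%), 218 higher at P21 (1.86%) and 46 lower (0.393%). None of the 17 identity genes or 13 class II genes was called in limma, although at an unadjusted p under 0.05 the identity genes gave 2 higher and 6 lower at P21 and the class II genes 1 lower. On simulated data with known changes this comparison of 2 libraries with 2 called no changed gene. Those known changes were smaller than the differences of the called genes named below. The lack of calls among identity and class II genes thus does not show that the ages were alike. Cd207 differed by -0.4 ± 0.41 between the ages (adjusted p = 0.7346). Igfbp2, which binds insulin-like growth factors, was at 11.53 and 12.35 at P21 and at the floor in both P8 libraries (6.57 ± 0.62, adjusted p = 0.01409). Klf5, an epithelial transcription factor, rose by 6.43 ± 0.69, Krt14, a keratin of basal keratinocytes, by 5.8 ± 0.84, and the basement membrane genes Lama5 and Col18a1 by 5.83 ± 0.55 and 5.74 ± 0.56. Irf9, an interferon response factor, was at the floor in both P21 libraries and at 10.57 and 10.38 at P8 (-5.1 ± 0.48). Lpar1, a lysophosphatidic acid receptor, the NF-kappaB inhibitor gene Tnfaip3 and Zfp24 changed by -5.09 ± 0.55, -4.5 ± 0.88 and -4.48 ± 0.86. Each of these calls was lost without at least 1 library (adjusted p up to 0.3116), and no gene was called without any 1 of the E18.5, P8 or P21 libraries. At an unadjusted p under 0.05, 1116 to 1486 genes passed in those 6 fits.

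Keratinocyte genes were higher at P8 and P21 in 13 of 17 cases, but in 3 with P8 alone and in 13 with P21 alone. That count was 8 to 13 with 1 library left out, lowest without E18.5 replicate 1, and 3 of 14 within the larger set. Tested directly, 3 of 17 were higher at P21 than at P8, and 0 to 3 with 1 library left out. Krt5, a keratin of the basal layer, was at 8.6 and 11.7 at P8 and 16.13 and 16 at P21, against the floor in both E14.5 libraries and the floor and 8.85 at E18.5. The keratinocyte list held 0% to 0.0467% of the summed linear signal in the embryonic libraries, 0.105% and 0.15% at P8, and 2.63% and 2.75% at P21. Cd207 lay between 14.55 and 15.37 at both ages, and Epcam, Cldn1 and Cd24a were called with P8 alone at 7.64 ± 0.42, 7.3 ± 0.41 and 7.65 ± 0.58. The part of keratinocyte RNA in the genes that epithelium shares was not tested.

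**Figure D4:**
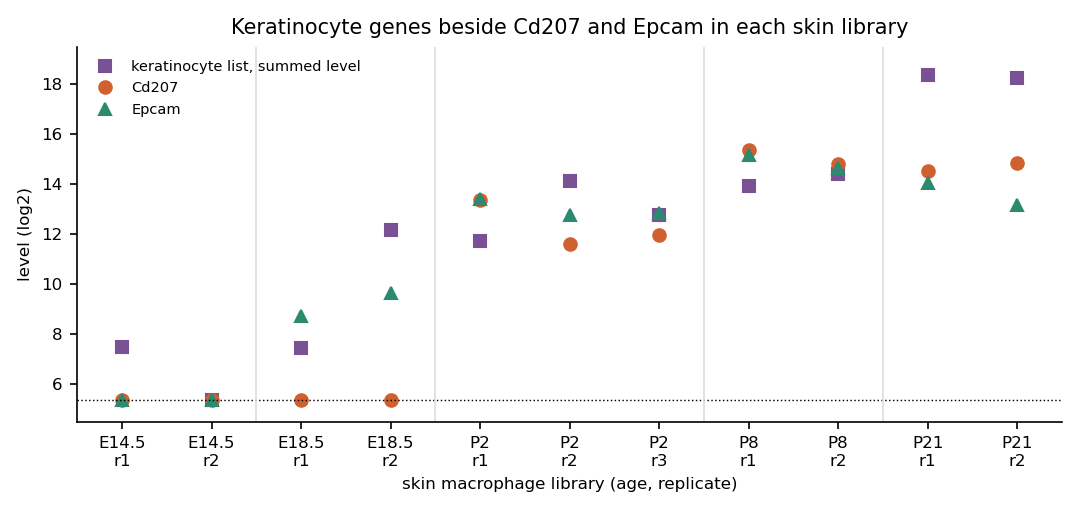
Log2 level (y axis) of the summed keratinocyte list, Cd207 and Epcam in each of the 11 skin libraries (x axis, E14.5 to P21). The keratinocyte level is 18.36 and 18.24 at P21 and 13.93 and 14.41 at P8, while Cd207 lies between 14.55 and 15.37 at both ages.

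Other cell types had few markers that could be tested. Of 5 conventional dendritic cell genes tested, Flt3 and Itgax were higher, with a summed level of the list of 11.7 to 12.49 in P8 and P21 libraries and 10.85 to 12.39 in embryonic ones. With 1 library left out, 0 to 2 genes of that list were higher and 0 to 1 lower. Of that list, Xcr1 and Clec9a were at the floor in all P8 and P21 libraries. Between 3 and 5 of its 9 genes lay above the floor there, against 2 to 6 in the embryonic libraries. Of 3 NK and innate lymphoid genes tested 2 were higher, Il7r among them, with a summed level of 10.61 to 12.49, against 5.37 to 7.51, and 1 was higher with any 1 library left out. Of 5 monocyte genes tested, Nr4a1 and Spn were higher and Ccr2 lower, with a summed level of 9.49 to 10.29, against 6.42 to 11.89. With 1 library left out, 0 to 2 monocyte genes were higher and 0 to 2 lower. The calls of Nr4a1 and Spn were lost in 2 and 4 of 8 such fits (adjusted p up to 0.08379 and 0.08887). The part of these cells in the class II, Flt3 and Il7r values was not tested. Postn, a fibroblast gene, rose by 3.7 ± 0.59 and was at the floor and 7.55 at P8 and 11.87 and 11.49 at P21, and its call was lost with an adjusted p of 0.05014 when 1 library was left out. The collagen genes of that list did not reach the level needed for testing. The B cell receptor gene Cd79b fell by 3.27 ± 0.46, and the neutrophil genes S100a8, S100a9, Ngp and Camp were above the floor only in P2 replicate 1.

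The change with age was then set against that in macrophages of brain, kidney, liver and lung at the same ages (29 libraries), with 1 mean per tissue and age. Liver had 1 library at E14.5, and lung had 1 at P8 and 1 at P21. These lung libraries had 8020 and 7668 genes above the floor, against 10282 to 10810 in the P8 and P21 libraries of skin. Of 13729 genes tested, 647 (4.71%) changed differently in skin, 505 with a larger rise or smaller fall (3.68%) and 142 the other way (1.03%). Of the identity genes 7 of 17 were higher by this test, and 4 to 8 with 1 library left out, lowest without P21 replicate 1 of skin. Of the class II genes 6 of 13 were higher and 1 lower, with 3 to 7 higher when 1 library was left out, lowest without E18.5 replicate 1 of skin. Of the macrophage core genes 13 of 23 were lower (median -2.87) and none higher. No MHC class I gene of 13 and no cell cycle gene of 29 was called in limma, with 2 class I genes (1 each way) and 2 cell cycle genes at an unadjusted p under 0.05. Keratinocyte genes were higher in 14 of 17. The median difference over all genes tested was 0.29. It was -0.024 against kidney alone, 0.163 against brain, 0.458 against liver and 1.066 against lung, so the lean upward depended on the tissue compared.

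Cd207 rose by 9.52 in skin, against changes of 0.84 in brain, 0.98 in kidney, -2.01 in liver and 0.37 in lung, a difference of 9.48 ± 0.97 (adjusted p = 3.681e-07). Outside skin Cd207 was above the floor in 24 of 82 libraries, with a highest level of 11.03 in a liver library of P8. Mmp9 rose by 8.44 in skin, against 0.23, -1.52, -0.02 and 0.57 in brain, kidney, liver and lung (difference 8.63 ± 0.98). The other large differences upward were in Mfge8 (7.48 ± 1.29), in Nedd4, a ubiquitin ligase (7.78 ± 1.68), and in Cacna1e, a calcium channel subunit (7.19 ± 0.78). Downward they were in Cybb (-6.73 ± 1.08), Dab2 (-6.59 ± 0.7), Fcgr3 (-6.32 ± 0.49), Pld4, an endolysosomal exonuclease (-6.13 ± 0.5), and Anxa3 (-6 ± 0.76). Fcgr3 fell by 5.31 in skin, against changes of 1.52 in brain, 1.9 in kidney, 1.58 in liver and -0.96 in lung. Cybb was not called against brain alone, nor Nedd4 against brain or kidney alone. All 10 calls were kept with any 1 library left out.

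**Figure D5:**
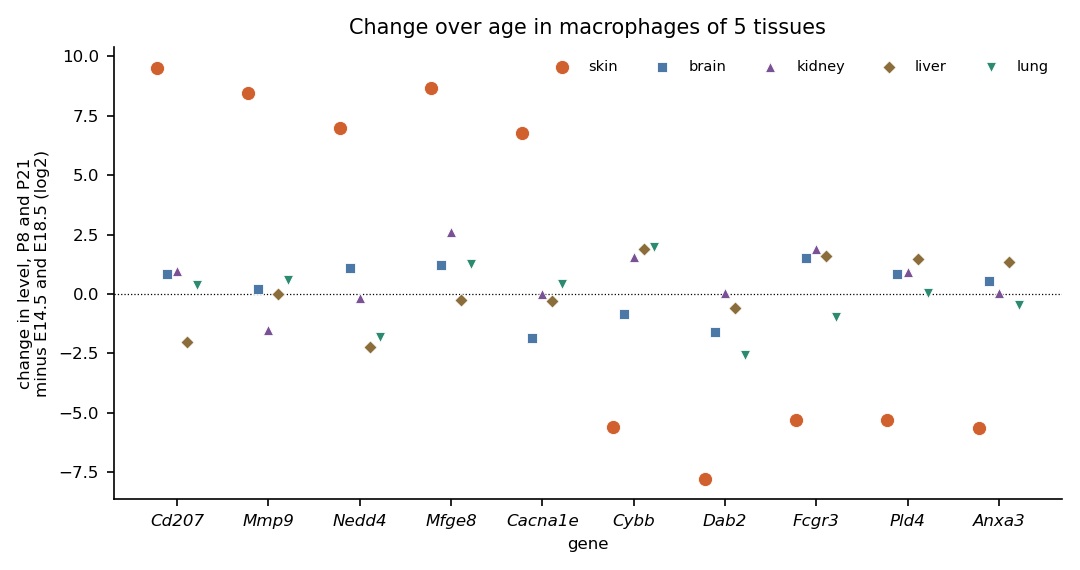
Log2 change (y axis, P8 and P21 minus E14.5 and E18.5) of the 10 genes with the largest differences between skin and the other tissues (x axis), in skin, brain, kidney, liver and lung macrophages. Cd207 changes by 9.52 in skin and by -2.01 to 0.98 elsewhere, and Fcgr3 by -5.31 in skin and by -0.96 to 1.9 elsewhere.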

How the data were processed

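The members and the gene lists were chosen with earlier results of these data known. The authors deposited 1 table of log2 values for 37521 Ensembl transcripts and 93 libraries, already normalized in a way not given in the sources used here, and base 2 was inferred from their range (0.836 to 19). Bowtie 1.1.1, DESeq2 and mm10 are named, without roles, in the submitters' processing notes. Without counts, depth is unknown and no counting interval can be given. Of the transcripts, 36703 matched 14181 genes by ID and 818 did not.

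The floor lies 0.5 above the highest of the libraries' low bands (2.32 to 4.87, the 5th percentile of each). It hides differences below it. A gene was tested if its level reached 6.37 in at least 2 libraries. Differences were fitted with limma 3.58.1 (intensity trend, 1 mean per age, Benjamini-Hochberg adjustment) in R 4.3.3, which suits log2 values without counts. The design was checked on simulated data: most of the large known changes were called in the main comparison, few in the test against other tissues and none in P21 against P8. Library sets came from correlations of low values over 3932 transcripts, with their number preset at 2.

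Named genes are Cd207, Epcam and Runx3, the 12 largest rises and falls of the main comparison among called genes whose groups do not overlap, the 5 largest each way elsewhere, up to 4 called members of each list and a few set genes such as Csf1r. Further list members were named after their values were seen, and some genes that the rule names are not reported here. Alternatives covered other floors, filters and scalings, single ages, library sets and each library left out. Same-numbered replicates did not deviate together (correlations of -0.032 to 0.045). Promoters came from RefSeq (GRCm38.p6).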

Additional observations from a re-analysis of the deposited data

Results flagged for a closer look

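The changes with age in skin that differed from those in brain, kidney, liver and lung macrophages are given here because the difference itself was tested. In limma 647 of 13729 genes passed. The 10 largest differences, skin change minus the mean change elsewhere, were 9.48 for Cd207, 8.63 for Mmp9, 7.78 for Nedd4, 7.48 for Mfge8 and 7.19 for Cacna1e upward, and -6.73 for Cybb, -6.59 for Dab2, -6.32 for Fcgr3, -6.13 for Pld4 and -6 for Anxa3 downward. Cd207, Mmp9 and Mfge8 are genes of Langerhans cells, and Cybb, Dab2 and Fcgr3 are expressed by most macrophages. Groups of 2 libraries per age were too small to look for single outlying libraries.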

How the results depend on the processing

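The 1594 calls at P8 and P21 against E14.5 and E18.5 became 612 in a fit of 2 groups without age means, 853 with 5 tissues in one fit, 749 with P8 alone, 519 against E18.5 alone, 673 with library set as a covariate, 393 within the larger set, and 503 to 2210 with 1 library left out. Another 12 settings gave 1295 to 2144. Quantile normalization gave 934 higher and 684 lower calls (57.7% higher, against 69.8%), with the median of all genes at -0.045 in place of 0.182. Of 96 called genes named, 58 kept their call with every single library left out. Within the larger set 50 lost it, against E18.5 alone 45, with the set as a covariate 34, without age means 29, with P8 alone 26 and with P21 alone 17. With P8 alone Tgfbr3 was at 0 and Irf9 at 0.08, and against E18.5 alone Rsad2 was at 0, so these differences rest on 1 age. P21 against P8 gave 264 calls, 124 with the replicate block and 0 to 241 with 1 library left out. E18.5 against E14.5 gave 286 calls, 474 after quantile normalization, 116 with the replicate block and 0 to 787 with 1 library left out, the highest without E14.5 replicate 2. Its split of 163 higher and 123 lower became 124 and 160 with a floor 1 higher and 223 and 93 with median centring, which moved the median of all genes by 0.255. The test against other tissues gave 647 calls, 480 to 706 with 1 library left out and 1700 against lung alone, and its split of 505 and 142 became 338 and 201 with no floor and 445 and 215 after quantile normalization. Replicate numbers did not pair the libraries, and the replicate block gave 1295 calls in the main comparison and 635 against other tissues. The cause of these changes was not tested. The floor from skin libraries and the set covariate in the test against other tissues (612 calls) were chosen after seeing the data. Without counts the depth of a library is unknown, and levels below the floor cannot be compared.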

Other observations

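Langerin RNA was also present in the liver before birth. Cd207 was at 9.05 in the 1 liver library of E14.5 and at 8.69 and 10.07 in the 2 of E18.5, when all 4 skin libraries were at the floor, and it ranged from the floor to 11.03 in the 2 liver libraries of P8. Mmp9 was at 8.45 and 10.07 in the 2 kidney libraries of E14.5 and reached 11.85 in a lung library of P2, an age at which the 3 skin libraries were at the floor. The highest levels of Epcam and Cdh1 outside skin were 9.46 in a kidney library of P8 and 12.27 in a lung library of P21. P2rx2 did not exceed 7.31 in any of the 82 libraries outside skin. Other identity genes were common there. Of 63 macrophage libraries outside skin, Id2 lay above the floor in 63, Mfge8 in 51 and Runx3 in 46. Id2 reached 14.9 in a liver library of P8.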
